A study of Mus musculus with 18 samples.

Results

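The PIM kinases Pim1, Pim2 and Pim3 were followed in mouse bone marrow-derived dendritic cells that had or lacked Bat3 and were given LPS, tolerising cytokines or medium alone. The members were found by gene symbol: 3 of the 23420 genes listed for each library, all 3 of which passed the count filter that kept 11876 genes. The family was chosen by the measured difference of Pim1 between the genotypes in these data. Differences between the genotypes are therefore given for the 3 members as a description, with no test, and tests are given for the treatments.

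PIM proteins are serine/threonine kinases that are active as soon as they are made and have no regulatory domain. Their activity therefore follows the amount of protein, which depends on transcription, on short-lived messenger RNA and on degradation by the proteasome. Cytokine receptors that signal through JAK kinases and STAT transcription factors are the classical inducers, among them the receptor for GM-CSF, the cytokine in which these cells were grown. PIM kinases act on survival, cell cycle and translation proteins such as BAD, the CDK inhibitors p21 and p27 and eIF4B, many of which are also AKT substrates.

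All cells were of the C57BL/6 strain, were differentiated from bone marrow with GM-CSF, were treated for 8 hours and were sorted as live cells with high CD11c. The 6 groups held 3 libraries each. WT cells, labelled wild type, received medium, LPS, IL10 with TGF-β, or LPS with IL10 and TGF-β, and Bat3cKO cells, of genotype Bat3 fl/fl CD11c Cre, received medium or LPS. Bat3 is an older name of Bag6, which encodes a chaperone for newly made and tail-anchored proteins. Cre was driven by the CD11c promoter, so deletion depends on CD11c expression during culture; the labels do not say whether WT cells carried the floxed alleles or Cre, and give no age or sex. They name 5 biological replicates in the treatment field and triplicates in the design text, and do not say that libraries came from separate animals or cultures, so p-values measure the spread between these libraries, which may be technical. In bulk samples such as these, fewer cells of a type and less RNA per cell cannot be told apart.

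Total expected counts ranged from 8056831 to 12068759 per library. Bag6 was between 22.8 and 27.6 CPM (counts relative to the library total, scaled between libraries by TMM) in the 12 WT libraries. It was 4.81, 7.31 and 4.56 CPM in Bat3cKO medium and 11.3, 10.4 and 6.31 CPM in Bat3cKO LPS. All 6 Bat3cKO libraries were below every WT library (log2 difference −2.08 ± 0.17 in medium and −1.36 ± 0.17 under LPS, SE; edgeR adjusted p = 9.1e-08 and 9.3e-06). Itgax, which encodes CD11c, was present in every library, from 239 to 1173 CPM without scaling, and 8 of 9 lymphocyte markers were under 1 CPM in every library. The first library of each Bat3cKO group carried Xist at up to 590 CPM in medium and 818 CPM under LPS, against at most 0.587 CPM in WT libraries, so these libraries differ in sex pattern from WT. The gene Rn45s, which a later setting removes, ran from 12769 to 40129 CPM without scaling in Bat3cKO medium, against 63793 to 80171 in WT medium. Under LPS it ran from 53808 to 61482 in Bat3cKO and from 44756 to 76746 in WT libraries. Markers of granulocyte precursors moved with the groups. Their summed level was 534 to 1199 CPM in WT medium, 1748 to 3954 in WT LPS, 5819 to 9251 with IL10 and TGF-β, 5262 to 6431 with LPS and both cytokines, 1211 to 3611 in Bat3cKO medium and 1329 to 2595 in Bat3cKO LPS. The sums hide unlike members. Between medium and LPS, mean Lcn2 went from 73.2 to 1392 CPM in WT and from 175 to 1259 in Bat3cKO cells. Mean Ltf went from 45.0 to 76.0 CPM in WT and from 63.5 to 25.3 in Bat3cKO cells.

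Pim1, the founding member of the family and a classical STAT5 and STAT3 target, was a weakly detected transcript in WT cells and an abundant one in Bat3cKO cells. In WT medium its 3 libraries held 10.9, 12.4 and 12 CPM (mean 11.8 ± 0.812, SD, n = 3). WT LPS libraries held 15.2, 22.3 and 17.7 CPM (18.4 ± 3.59, SD, n = 3). With IL10 and TGF-β the values were 12.9, 14.8 and 13.2 CPM (13.6 ± 1.01, SD, n = 3), and with LPS added to these cytokines 14.5, 17.5 and 14.1 CPM (15.4 ± 1.89, SD, n = 3). All 12 WT libraries thus lay within a narrow low range, and only the WT medium group stood clear of the group next above it. Bat3cKO medium libraries held 231, 216 and 224 CPM (223 ± 7.53, SD, n = 3). Bat3cKO LPS libraries held 473, 527 and 532 CPM (511 ± 32.6, SD, n = 3). No Bat3cKO library came near a WT library, and the Bat3cKO groups did not overlap each other.

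Pim3, the member whose kinase sequence is closest to that of Pim1, was the main PIM transcript of WT cells and followed LPS in either genotype. WT medium libraries held 71.4, 91.2 and 68.3 CPM (77.0 ± 12.4, SD, n = 3), and WT libraries with IL10 and TGF-β held 78.2, 80 and 72.6 CPM (76.9 ± 3.86, SD, n = 3). WT LPS libraries held 202, 153 and 179 CPM (178 ± 24.5, SD, n = 3). With LPS and both cytokines Pim3 was 263, 223 and 179 CPM (222 ± 42.0, SD, n = 3). Every library given LPS was above every WT library that was not, and the WT LPS groups with and without cytokines overlapped. Bat3cKO medium libraries held 164, 178 and 176 CPM (173 ± 7.62, SD, n = 3), a level that overlapped WT LPS. Bat3cKO LPS libraries held 390, 390 and 336 CPM (372 ± 30.9, SD, n = 3) and were the highest group.

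Pim2, a kinase best known from lymphocytes and plasma cells, was low in every group. Its rounded counts ran from 37 to 120 per library, against 128 to 3457 for Pim1 and 806 to 2937 for Pim3, so its values are the least precise of the family. WT medium libraries held 4.5, 4.63 and 6.39 CPM (5.17 ± 1.06, SD, n = 3) and WT LPS libraries 5.04, 5.95 and 7.17 CPM (6.05 ± 1.07, SD, n = 3). With IL10 and TGF-β it was 5.04, 3.13 and 4.6 CPM (4.26 ± 1.0, SD, n = 3), and with LPS added 5.64, 4.91 and 4.42 CPM (4.99 ± 0.614, SD, n = 3). The 4 WT groups overlapped throughout. Bat3cKO medium libraries held 10.9, 8.95 and 9.87 CPM (9.9 ± 0.971, SD, n = 3), and Bat3cKO LPS libraries 14.6, 10.9 and 9.38 CPM (11.6 ± 2.66, SD, n = 3). The Bat3cKO groups lay above all WT libraries and overlapped each other. Pim2 is X-linked, and in each Bat3cKO group its highest library was the first, the library with the high Xist level.

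**Figure D1:**
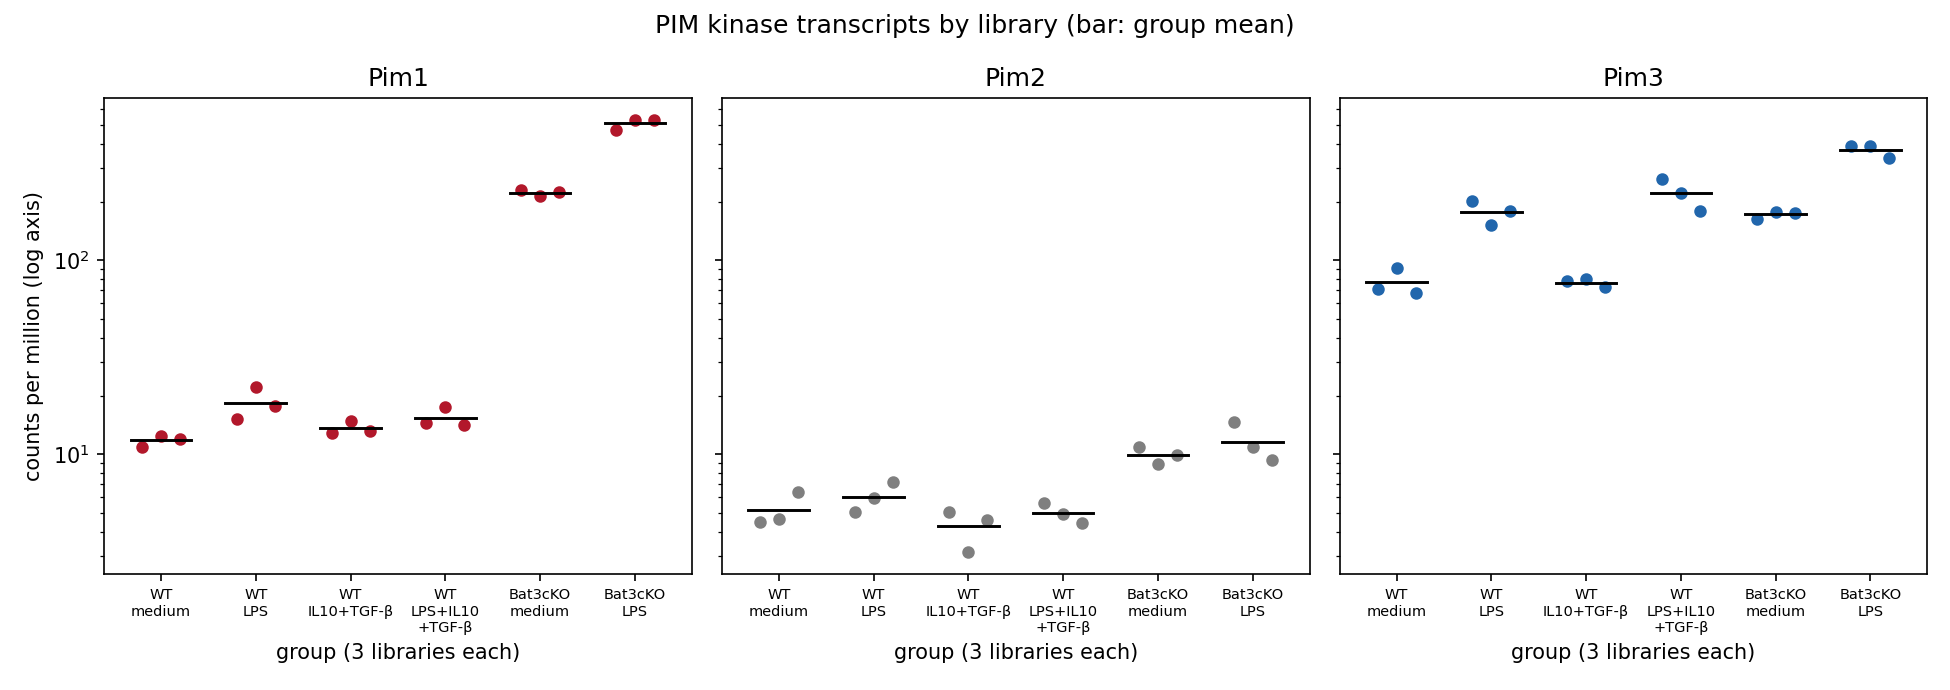
Each point is the level of a PIM kinase in 1 library, in TMM-scaled CPM on a log axis, for the 6 groups of 3 libraries; black bars are group means. Pim1 lies between 10.9 and 22.3 in WT libraries and between 216 and 532 in Bat3cKO libraries, Pim2 stays between 3.13 and 14.6, and Pim3 runs from 68.3 to 390.

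To set the members beside each other, levels per transcript length were used (TPM, as deposited, which divide each count by the transcript length). In WT medium Pim3 made up 77.0 ± 3.19% of the summed TPM of the family, Pim1 16.7 ± 1.46% and Pim2 6.3 ± 1.73% (SD, n = 3). Under LPS Pim3 held 84.1 ± 4.07% in WT cells, and 88.8 ± 1.62% where the cytokines were also given (SD, n = 3). In Bat3cKO cells the order of the leading members was the opposite. Pim1 held 62.9 ± 1.56% of the family in medium and 65.0 ± 3.13% under LPS, and Pim3 34.7 ± 1.78% and 33.8 ± 2.84% (SD, n = 3). The summed TPM level was 77.4 ± 8.58 in WT medium, 138 ± 21.7 in WT LPS, 71.1 ± 1.68 with IL10 and TGF-β, 159 ± 25.9 with LPS and both cytokines, 365 ± 4.3 in Bat3cKO medium and 559 ± 9.73 in Bat3cKO LPS (SD, n = 3). Pim2 supplied 1.26 ± 0.318% to 6.3 ± 1.73% of the family in every group. These shares rest on the authors' gene models, which give Pim1 1753 bases, Pim2 2041 and Pim3 2419. The GENCODE M21 transcript of Pim1 is 2698 bases long, so the per-length level of Pim1 depends on the shorter model. The effect of that choice on the shares was not tested.

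**Figure D2:**
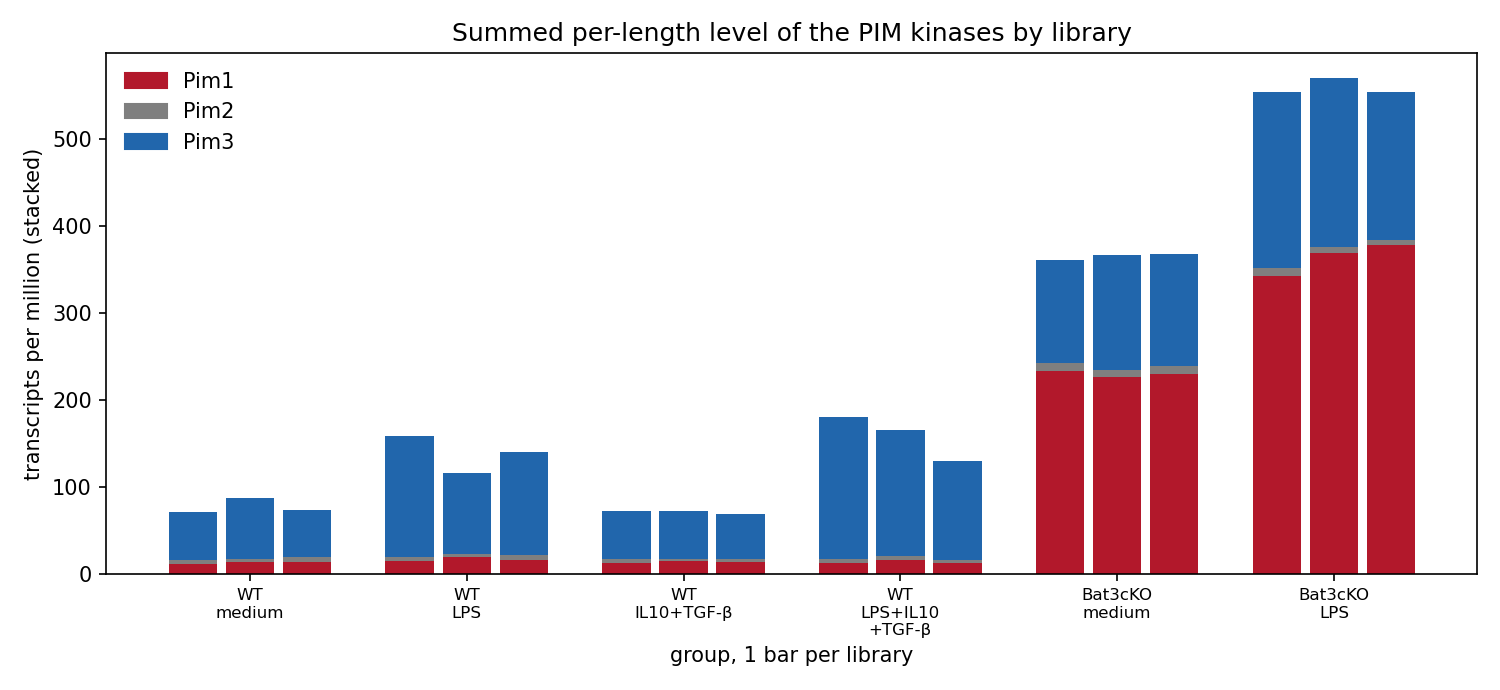
Each bar is 1 library, stacked from the per-length levels of Pim1, Pim2 and Pim3 in TPM, for the 6 groups of 3 libraries. Pim3 makes up most of every WT bar, and Pim1 makes up most of every Bat3cKO bar.

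The genes lie on 3 chromosomes (RefSeq, GRCm38.p6, the assembly of the authors' mm10 build). Pim1 is on chromosome 17 from 29490785 to 29496111, Pim2 on chromosome X from 7878306 to 7883432 and Pim3 on chromosome 15 from 88862194 to 88865726, all on the plus strand. Pim1 is on the same chromosome as Bag6, the floxed gene, whose start at 35135156 is 5.64 megabases from the end of Pim1. The 250 bases before each start site are shown for Pim1 and Pim3, the members that followed LPS, and for Pim2, which did not pass that test. Capitals mark the motif matches found on either strand.
Pim1, chr17:29490535-29490784, plus strand: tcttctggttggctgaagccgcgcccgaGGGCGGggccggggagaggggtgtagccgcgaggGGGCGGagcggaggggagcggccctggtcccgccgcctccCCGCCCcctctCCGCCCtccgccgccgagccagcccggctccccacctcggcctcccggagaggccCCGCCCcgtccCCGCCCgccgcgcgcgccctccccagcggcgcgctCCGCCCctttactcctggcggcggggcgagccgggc
Pim3, chr15:88861944-88862193, plus strand: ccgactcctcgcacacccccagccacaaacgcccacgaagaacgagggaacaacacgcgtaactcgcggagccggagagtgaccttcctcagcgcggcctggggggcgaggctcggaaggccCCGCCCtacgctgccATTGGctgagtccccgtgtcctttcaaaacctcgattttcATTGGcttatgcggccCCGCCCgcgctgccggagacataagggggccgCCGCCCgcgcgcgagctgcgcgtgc
Pim2, chrX:7878056-7878305, plus strand: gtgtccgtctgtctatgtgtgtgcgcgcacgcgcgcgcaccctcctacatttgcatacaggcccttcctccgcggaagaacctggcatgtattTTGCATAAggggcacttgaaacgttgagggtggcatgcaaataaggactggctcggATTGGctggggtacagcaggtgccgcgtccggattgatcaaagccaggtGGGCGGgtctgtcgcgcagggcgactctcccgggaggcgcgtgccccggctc
The Pim1 window is 82.4% G and C, that of Pim3 68.0% and that of Pim2 62.0%, against a median of 52.4% over 32841 RefSeq promoter windows of this length. Only 0.579% of those windows reach the value of Pim1. GC boxes (GGGCGG, the core of the SP1 site) matched 7 times before Pim1, 3 times before Pim3 and 1 time before Pim2. At least 1 was found in 32.7% of all windows, at least 3 in 8.47% and at least 7 in 0.411%. CCAAT boxes (CCAAT) matched 2 times before Pim3 and 1 time before Pim2, and were found in 33.9% of all windows. A C/EBP palindrome (TTGCNNAA) matched 1 time before Pim2 and was found in 9.57% of windows. The STAT palindrome TTCNNNGAA (in 7.02% of windows), the AP-1 motif TGANTCA (6.75%) and the CRE TGACGTCA (1.55%) are not in these letters for any of the 3 genes. No matched motif overlapped another. RefSeq holds a further start site of Pim1, and its window matched none of the 6 motifs.

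The 3′ untranslated regions were searched for ATTTA, the pentamer of AU-rich elements that mark short-lived messenger RNAs. Pim1 held 5 in 1365 bases, Pim3 5 in 964 and Pim2 2 in 915, against a median of 2.0 over 10776 tested genes with a 3′ untranslated region in GENCODE M21. At least 5 were found in 22.7% of those genes. The densest 30-base stretch of each gene is shown with the pentamers in capitals.
Pim1: gaagttttaatgtATTTATTTATTTATTTA
Pim3: ccctgctggggctATTTAttgtttaATTTA
Pim2: tgtcccttctccccctgcctggattATTTA
In Pim1 the stretch holds 4 overlapping pentamers in a row, in Pim3 it holds 2 apart from each other and in Pim2 1.

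LPS, the bacterial lipid that activates dendritic cells through TLR4, raised Pim1 and Pim3 in either genotype. In WT cells Pim3 rose 2.31-fold (log2 1.21 ± 0.13, SE; edgeR adjusted p = 1.2e-07) and Pim1 1.56-fold (0.64 ± 0.13; edgeR adjusted p = 0.00018). For both genes the 3 LPS libraries were above the 3 medium libraries. Pim2 was 1.17-fold higher on average (95% interval 0.848 to 1.61; edgeR adjusted p = 0.4). Thus 2 of 3 members rose, where 29.8% of the 11876 genes tested rose, 28.9% fell and 58.7% passed in either direction. Pim3 had a larger log2 change than all but 10.1% of tested genes and Pim1 than all but 21.6%. In Bat3cKO cells Pim1 rose 2.29-fold (log2 1.19 ± 0.11, SE; edgeR adjusted p = 4.2e-09) and Pim3 2.15-fold (1.10 ± 0.13; edgeR adjusted p = 2.5e-07). There Pim2 was 1.18-fold higher on average (95% interval 0.873 to 1.58; edgeR adjusted p = 0.33). Again 2 of 3 members rose, where 29.3% of genes rose, 34.8% fell and 64.1% passed in either direction. The split of all calls depends on the scale: with LPS 3537 genes rose and 3432 fell in WT cells and 3476 rose and 4138 fell in Bat3cKO cells, against 2357 and 4813, and 1903 and 6894, on log2(TPM + 1). Of the granulocyte precursor markers, 3 of 10 rose with LPS in WT cells, a share near the 29.8% of all tested genes. In Bat3cKO cells 1 rose and 5 fell of 10, where 29.3% of all tested genes rose and 34.8% fell. Of the dendritic cell markers, 1 of 9 was higher and 1 lower in WT cells, and 2 were higher and 1 lower in Bat3cKO cells. The part of these cells in the PIM result was not tested.

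The change of Pim1 with LPS was larger in Bat3cKO than in WT cells by 0.55 ± 0.16 on the log2 scale (95% interval 0.21 to 0.89, no test, since the genotype contrast chose the family). For Pim3 that difference was −0.10 ± 0.18 (−0.49 to 0.28) and for Pim2 0.01 ± 0.31 (−0.64 to 0.66). Of all tested genes, 17.4% passed the test of this difference, 7.33% higher and 10.1% lower. The scale matters for it: on log2(TPM + 1) the Pim1 difference was 0.31, where the median of all tested genes was −0.25, against −0.08 on the main scale.

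IL10 and TGF-β are cytokines that hold dendritic cells in a tolerising state, IL10 through STAT3 and TGF-β through SMAD proteins. Given without LPS they changed no PIM kinase past the threshold. By edgeR 0 of 3 members passed, 0 had an unadjusted p under 0.05 and DESeq2 called 0, where 35.2% of tested genes passed, 18.3% higher and 16.9% lower. Pim1 was 1.16-fold higher on average (95% interval 0.967 to 1.39; edgeR adjusted p = 0.21), Pim2 1.22-fold lower (log2 −0.29, −0.75 to 0.18; edgeR adjusted p = 0.35) and Pim3 lay at a log2 difference of −0.0005 (−0.28 to 0.27; edgeR adjusted p = 1). In these libraries 8 of 9 dendritic cell markers fell (median log2 −2.03), and all 10 granulocyte precursor markers (median 3.43) and all 6 mast cell and basophil markers (median 3.79) rose. Their part in the PIM values was not tested.

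When LPS was added to the cytokines, Pim3 rose 2.88-fold (log2 1.53 ± 0.13, SE; edgeR adjusted p = 1.9e-08), and only 2.65% of tested genes had a larger change. Pim1 was 1.13-fold higher on average (95% interval 0.941 to 1.35; edgeR adjusted p = 0.27) and Pim2 1.18-fold (0.848 to 1.64; edgeR adjusted p = 0.42). So 1 of 3 members rose, where 23.9% of genes rose, 23.1% fell and 46.9% passed in either direction. Set directly beside WT LPS, the libraries with LPS and both cytokines had Pim3 1.25-fold higher (95% interval 1.03 to 1.5; edgeR adjusted p = 0.055) and Pim1 1.19-fold lower (log2 −0.26, −0.51 to 0.0023; edgeR adjusted p = 0.11). By edgeR 0 of 3 members passed here, 1 had an unadjusted p under 0.05 and DESeq2 called 0, where 40.3% of tested genes passed, 19.1% higher and 21.1% lower. In this comparison 8 of 9 dendritic cell markers were lower (median of the list −2.26). Higher were 6 of 10 granulocyte precursor markers (median 1.86) and 4 of 6 mast cell and basophil markers (2.64). Their part in the PIM values was not tested. The cytokines changed the LPS response of Pim1 by −0.47 ± 0.18 (edgeR adjusted p = 0.065), of Pim2 by 0.01 ± 0.32 (adjusted p = 0.99) and of Pim3 by 0.32 ± 0.19 (adjusted p = 0.24) on the log2 scale. Again 0 of 3 passed by edgeR, 1 had an unadjusted p under 0.05 and DESeq2 called 0, where 20.9% of tested genes passed, 8.88% higher and 12.1% lower. The Pim1 and Pim3 values just outside the threshold crossed it under some other settings. With the replicate number as a block and all libraries kept, the LPS response of Pim1 differed by −0.46 and Pim3 between the LPS groups by 0.31 (edgeR adjusted p = 0.044 and 0.047). Same-numbered libraries of these LPS groups did not deviate together (correlations −0.023, −0.066 and −0.174). The block therefore follows no pairing between them, and no conclusion is drawn from these calls. Pim3 also passed with upper-quartile scaling, with no count filter and with Rn45s removed (edgeR adjusted p = 0.04, 0.025 and 0.043). Without WT LPS replicate 1, Pim1 differed between the LPS groups by −0.37 (edgeR adjusted p = 0.023) and in its LPS response by −0.59 (adjusted p = 0.017), and Pim3 between the LPS groups by 0.42 (adjusted p = 0.024). Without the second library given LPS and both cytokines, the same Pim1 values were −0.36 and −0.57 (edgeR adjusted p = 0.047 and 0.036). Without the third such library, Pim3 differed by 0.45 (edgeR adjusted p = 0.0098).

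Against medium, LPS with both cytokines raised Pim3 2.88-fold (log2 1.53 ± 0.13, SE; edgeR adjusted p = 3.5e-09) and Pim1 1.31-fold (0.38 ± 0.13; edgeR adjusted p = 0.012), with Pim2 at 0.967-fold (95% interval 0.701 to 1.33; edgeR adjusted p = 0.86). These are 2 of 3 members, where 30.7% of genes rose, 30.3% fell and 61.0% passed in either direction. The Pim1 call was lost without WT medium replicate 1 (log2 0.33, edgeR adjusted p = 0.055) or without the second library given LPS and both cytokines (0.28, adjusted p = 0.088), and on log2(TPM + 1), where it was 0.09 (limma adjusted p = 0.48). In this comparison all 10 granulocyte precursor markers (median log2 2.76) and all 6 mast cell and basophil markers (3.09) were higher and 8 of 9 dendritic cell markers lower (median of the list −2.35), and their part in the PIM values was not tested. WT medium is the control of this comparison, of the LPS comparison and of the cytokine comparison.

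**Figure D3:**
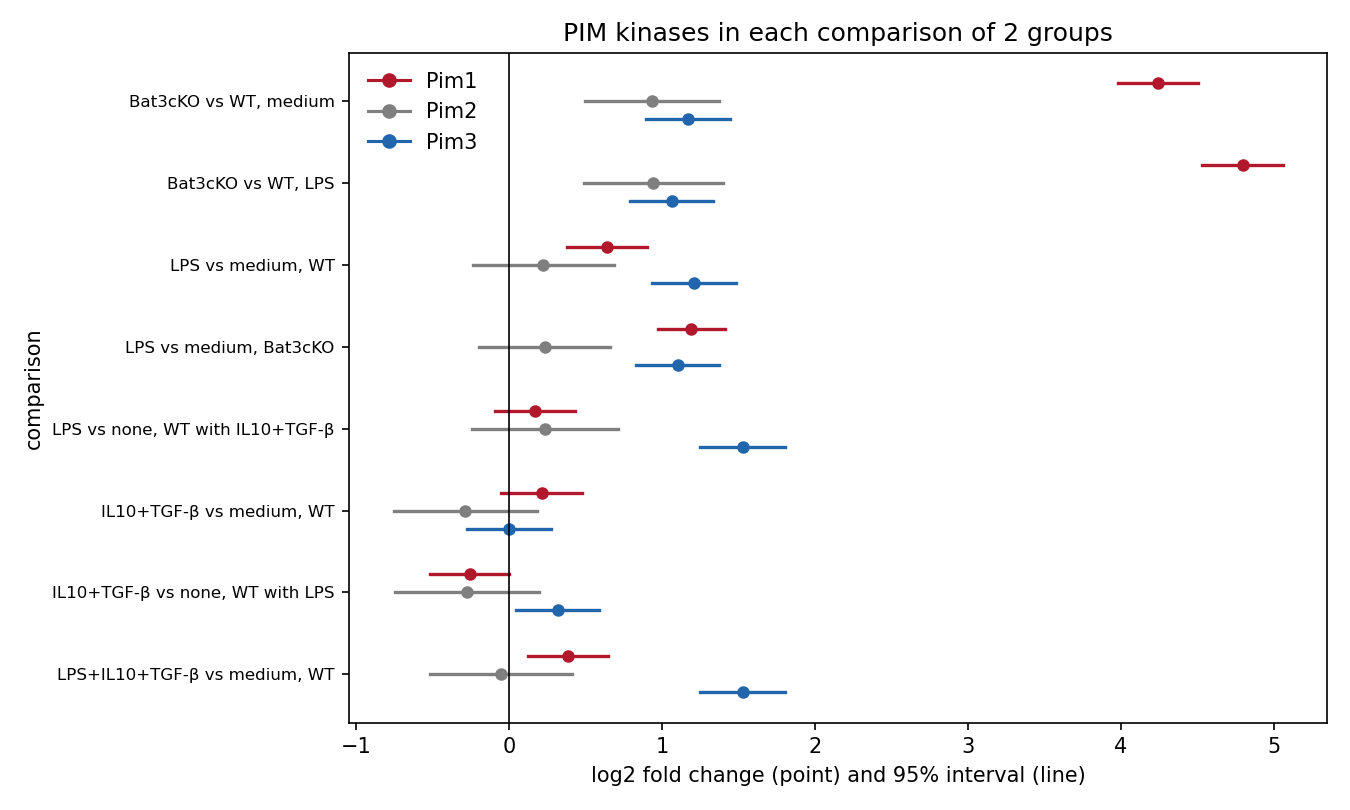
Points are log2 fold changes of the 3 PIM kinases in 8 comparisons of a pair of groups and lines are 95% intervals from the edgeR fit of all 18 libraries. The genotype differences of Pim1 are 4.24 and 4.80, Pim3 lies at 1.10 or above in each comparison that adds LPS, and each Pim2 interval crosses 0 outside the genotype comparisons.

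Between the genotypes, Pim1 was 18.9-fold higher in Bat3cKO medium than in WT medium (95% interval 15.8 to 22.7; log2 4.24 ± 0.13, SE) and 27.8-fold higher under LPS (23.1 to 33.4; 4.80 ± 0.13). Among tested genes, 12 had a larger log2 difference in medium and 6 under LPS. Pim3 was 2.25-fold higher in medium (1.86 to 2.72) and 2.09-fold higher under LPS (1.73 to 2.53). Pim2 was 1.91-fold higher in medium (1.41 to 2.59) and 1.92-fold higher under LPS (1.4 to 2.63). All 3 members thus lay higher in the 3 Bat3cKO libraries of each condition, where 15.8% of tested genes were called higher and 14.4% lower in medium (30.2% in either direction), and 16.0% higher and 19.3% lower under LPS (35.3%); nothing is read from the members' count, because these values chose the family. Without the first library of each Bat3cKO group, the log2 difference of Pim2 was 0.86 in medium and 0.74 under LPS, that of Pim1 4.22 and 4.85 and that of Pim3 1.20 and 1.03. On log2(TPM + 1) the differences under LPS were 4.37 for Pim1, 0.49 for Pim2 and 0.70 for Pim3, with the median of all tested genes at −0.31 and 724 genes higher and 5424 lower, against 1901 and 2293 on the main scale. In medium, 8 of 10 granulocyte precursor markers (median log2 1.68) and 4 of 6 mast cell and basophil markers (1.97) were also higher in Bat3cKO libraries, and their part in the PIM values was not tested. Under LPS 0 of 10 granulocyte precursor markers passed by edgeR (1 lower at an unadjusted p under 0.05; median −0.63).

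Among genes that neighbour the members, differences between the genotypes went either way. Of all tested genes, 30.2% were called in medium and 35.3% under LPS, so nothing particular to the neighbours is read from their calls. Of the 5 listed genes on each side of Pim1, the farthest 226814 bases away, 8 were tested, with a median log2 difference of 0.04 in medium and 0.16 under LPS. In medium Tbc1d22b, a Rab GTPase-activating protein gene, was higher by 1.23 ± 0.18 and Fgd2, which encodes a CDC42 exchange factor of antigen-presenting cells, lower by −2.59 ± 0.29 (edgeR adjusted p = 4.9e-05 and 3e-06). Under LPS Ppil1 and Rnf8 were lower in Bat3cKO cells (−1.003 ± 0.25 and −0.78 ± 0.15; edgeR adjusted p = 0.0044 and 0.00038). Around Pim2, 6 of 10 neighbours were tested, and Pqbp1 in medium and Tfe3 under LPS passed, both lower. Around Pim3, 4 of 10 were tested. There Brd1 was lower in medium, and under LPS Creld2 was higher and Zbed4 lower.

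Over the 18 libraries Pim1 varied more widely than Pim2 or Pim3. Its spread includes the genotype difference that chose the family, so nothing is read from its distances to the other members. The root-mean-square difference of centred log2 CPM was 1.69 between Pim1 and Pim2, 1.71 between Pim1 and Pim3 and 0.62 between Pim2 and Pim3. Pim1 varied around its own mean by 2.17, Pim3 by 0.825 and Pim2 by 0.561. Pim2 and Pim3 thus differed by more than Pim2 itself varied. Over the 8975 named genes whose log2 CPM averaged 2 or more, the nearest to Pim1 was Cebpb, which encodes a transcription factor of myeloid cells, at a difference of 0.76. Cebpb averaged 1.9 CPM in WT medium, 2.91 in WT LPS, 66.1 in Bat3cKO medium and 69.8 in Bat3cKO LPS. Sap30, Lamp1, Grsf1 and Hnrpll came next, at 1.19 to 1.34. Sap30, a subunit of a histone deacetylase complex, went from 3.96 CPM in WT medium to 9.87 in WT LPS, 26.4 in Bat3cKO medium and 52.2 in Bat3cKO LPS. For Pim3 the nearest genes were Ttc39c, Tmem189, Ell, Golph3l and Necap1, at 0.24 to 0.27. Golph3l, a Golgi protein gene, averaged 62.9, 155, 102 and 274 CPM in the same 4 groups. For Pim2 they were Cenpl, Isca1, Ugdh, Gtf2e2 and Tmem60, at 0.24 to 0.31. These likenesses are a description over libraries that share their groups.

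The receptors, JAK kinases and STAT factors upstream of the PIM genes were called more often with LPS than between the genotypes, as were all tested genes (58.7% with LPS in WT and 64.1% in Bat3cKO cells, 30.2% between the genotypes in medium). In WT cells 16 of 23 rose and 1 fell with LPS (median log2 0.80, all tested genes 0.01), and in Bat3cKO cells 15 rose and 2 fell (median 0.88, all genes −0.09). Stat3, which carries the IL10 and IL6 signals, rose in Bat3cKO cells by 1.41 ± 0.10 (edgeR adjusted p = 8.2e-11). Stat5a and Stat5b, which carry the GM-CSF signal, rose in WT cells by 1.81 and 1.35 (edgeR adjusted p = 1e-07 and 4.9e-09). Between the genotypes in medium 4 of 23 were higher and the other 19 did not pass (median −0.04). These 4 were Stat5b (0.61 ± 0.12; edgeR adjusted p = 0.00067), the receptor chain genes Il10rb (0.47 ± 0.09; adjusted p = 0.00082) and Ifnar2 (0.45 ± 0.13; adjusted p = 0.013), and Ifnar1 (0.30; adjusted p = 0.02). Under LPS 3 were higher and 4 lower in Bat3cKO cells, where 35.3% of all tested genes were called in either direction. Stat3 was higher by 0.52 ± 0.10 (edgeR adjusted p = 0.00029) and Ifnar2 by 0.67 ± 0.13 (adjusted p = 0.00044), and Il6ra, the IL6 receptor chain, lower by −0.86 ± 0.16 (adjusted p = 0.00041).

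Other genes that STAT factors induce were raised in part. In Bat3cKO medium 6 of 16 were higher than in WT medium and 2 lower (median 0.23, all tested genes −0.001). Of all tested genes, 15.8% were called higher there and 14.4% lower. Osm, the cytokine oncostatin M, was higher by 2.30 ± 0.11 (edgeR adjusted p = 1e-11), Junb, an AP-1 subunit, by 1.62 ± 0.10 (adjusted p = 2.8e-09) and Socs3, the feedback inhibitor of the STAT3 pathway, by 0.99 ± 0.15 (adjusted p = 7.9e-05). Cish, the textbook feedback inhibitor of STAT5, differed by 0.23 (edgeR adjusted p = 0.17). Under LPS 9 of 16 were higher in Bat3cKO cells and the other 7 did not pass (median 0.38, all genes −0.05). There 16.0% of all tested genes were called higher and 19.3% lower. Osm differed by 1.30 ± 0.10, Irf1, an interferon response factor, by 1.31 ± 0.11 and Junb by 1.02 ± 0.10 (edgeR adjusted p = 3.9e-08, 8.4e-08 and 6.8e-07). The survival genes Mcl1 and Bcl2l1 were higher by 0.79 and 0.37 (edgeR adjusted p = 1.9e-05 and 0.0063) and Cish by 0.52 (adjusted p = 0.0031). On log2(TPM + 1), whose median for all genes was −0.31, 5 of these 16 were higher and 5 lower under LPS. On that scale 724 of 11876 tested genes were higher and 5424 lower. IL10 with TGF-β raised 10 of the 16 and lowered 3 in WT cells (median 0.55), where 18.3% of all tested genes rose and 16.9% fell. Osm rose by 3.36 ± 0.11, Junb by 1.35 ± 0.10 and Socs3 by 1.99 ± 0.15 (edgeR adjusted p = 5.1e-15, 1.5e-09 and 2.7e-09). Pim1 averaged 13.6 CPM in these libraries. In them 8 of 9 dendritic cell markers fell, and all 10 granulocyte precursor markers and all 6 mast cell and basophil markers rose. The part of other cells in these values, and any link to Pim1, was not tested.

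Transcripts of proteins that PIM kinases phosphorylate moved in either direction. In Bat3cKO medium 5 of 26 were higher and 4 lower than in WT medium (median −0.11), a share near the 30.2% of all tested genes called there. Cdkn1a, the gene of p21, was higher by 1.03 ± 0.12 and Rela, an NF-κB subunit, by 0.79 ± 0.12, and Cbx3, a heterochromatin protein gene, lower by −0.82 ± 0.16 (edgeR adjusted p = 4.7e-06, 7.5e-05 and 0.00063). Under LPS 7 were higher and 4 lower (median 0.09), where 35.3% of all tested genes were called, 16.0% higher and 19.3% lower. Tsc2, which restrains mTOR, and Nfatc1, a calcium-regulated factor, were lower by −0.64 ± 0.11 and −0.68 ± 0.12, and Runx3 higher by 0.54 ± 0.11 (edgeR adjusted p = 0.00014, 0.00024 and 0.00055). With LPS in WT cells 11 rose and 8 fell, where 58.7% of all tested genes were called, 29.8% higher and 28.9% lower. Myc, whose protein PIM kinases stabilise, fell by 4.09 on the log2 scale, and Cdkn1a and Mdm2, the p53 ubiquitin ligase gene, rose by 2.23 ± 0.13 and 3.08 ± 0.19 (edgeR adjusted p = 3.8e-12, 4.6e-12 and 1.5e-10). Bad, whose protein is the classical survival substrate, rose with LPS in WT cells by 0.35 (edgeR adjusted p = 0.018) and differed between the genotypes in medium by −0.16 (adjusted p = 0.35). These are transcript levels and say nothing of phosphorylation.

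Chaperones and phosphatase subunits that set the lifetime of PIM proteins were called more often between the genotypes under LPS than in medium. HSP90 with CDC37 holds PIM kinases stable, and HSP70 with the ligase CHIP, encoded by Stub1, and the phosphatase PP2A lead them to the proteasome. Under LPS 7 of 10 were higher in Bat3cKO cells and the other 3 did not pass (median 0.55). Of all tested genes, 16.0% were called higher there and 19.3% lower (35.3% in either direction). Hspa8, a constitutive HSP70 gene, was higher by 1.06 ± 0.14, Hsp90aa1 by 0.72 and Hsp90ab1 by 0.54 (edgeR adjusted p = 1e-05, 0.00017 and 0.00044). Hspa1b was higher by 3.20 ± 0.36 and Hspa1a by 2.36 ± 0.33 (edgeR adjusted p = 8.8e-06 and 0.00013); these genes are near-identical, so the split of reads between them is uncertain. In medium 2 were higher and 2 lower, with Cdc37 at −0.34 ± 0.08, Hsp90aa1 at −0.42 ± 0.12 and Stub1 at 0.26 ± 0.09 (edgeR adjusted p = 0.0029, 0.014 and 0.029). Of all tested genes, 30.2% were called in medium, 15.8% higher and 14.4% lower. The genotype difference in the LPS change passed for 6 of 10, where 17.4% of all tested genes passed. Hsp90aa1 had the smallest p, at 1.14 ± 0.17 (edgeR adjusted p = 0.00031), and Hspa1b the largest value, at 4.15 ± 1.38 (adjusted p = 0.049). On log2(TPM + 1) 4 of 10 were higher and 2 lower under LPS, where 724 of 11876 tested genes were higher and 5424 lower.

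Kinases of the AKT branch share substrates with the PIM family. In medium 3 of 9 were lower in Bat3cKO cells and the other 6 did not pass (median −0.30), where 30.2% of all tested genes were called and 14.4% were lower. Sgk1, a kinase regulated by its own transcription, was lower by −1.43 ± 0.16, Pdpk1, the activating kinase of AKT, by −0.37 ± 0.11 and Mtor by −0.35 ± 0.12 (edgeR adjusted p = 6.7e-06, 0.017 and 0.026). Under LPS Pdpk1 was lower by −0.31 ± 0.12 (edgeR adjusted p = 0.043). With LPS in WT cells 4 rose and 2 fell, among them Akt1, which was lower by −0.91 ± 0.13 (edgeR adjusted p = 6.7e-06). Of all tested genes, 58.7% were called in that comparison. With IL10 and TGF-β 2 of 9 rose and 1 fell, where 35.2% of all tested genes were called. Sgk1 rose there by 2.53 ± 0.17 (edgeR adjusted p = 5.7e-10).

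**Figure D4:**
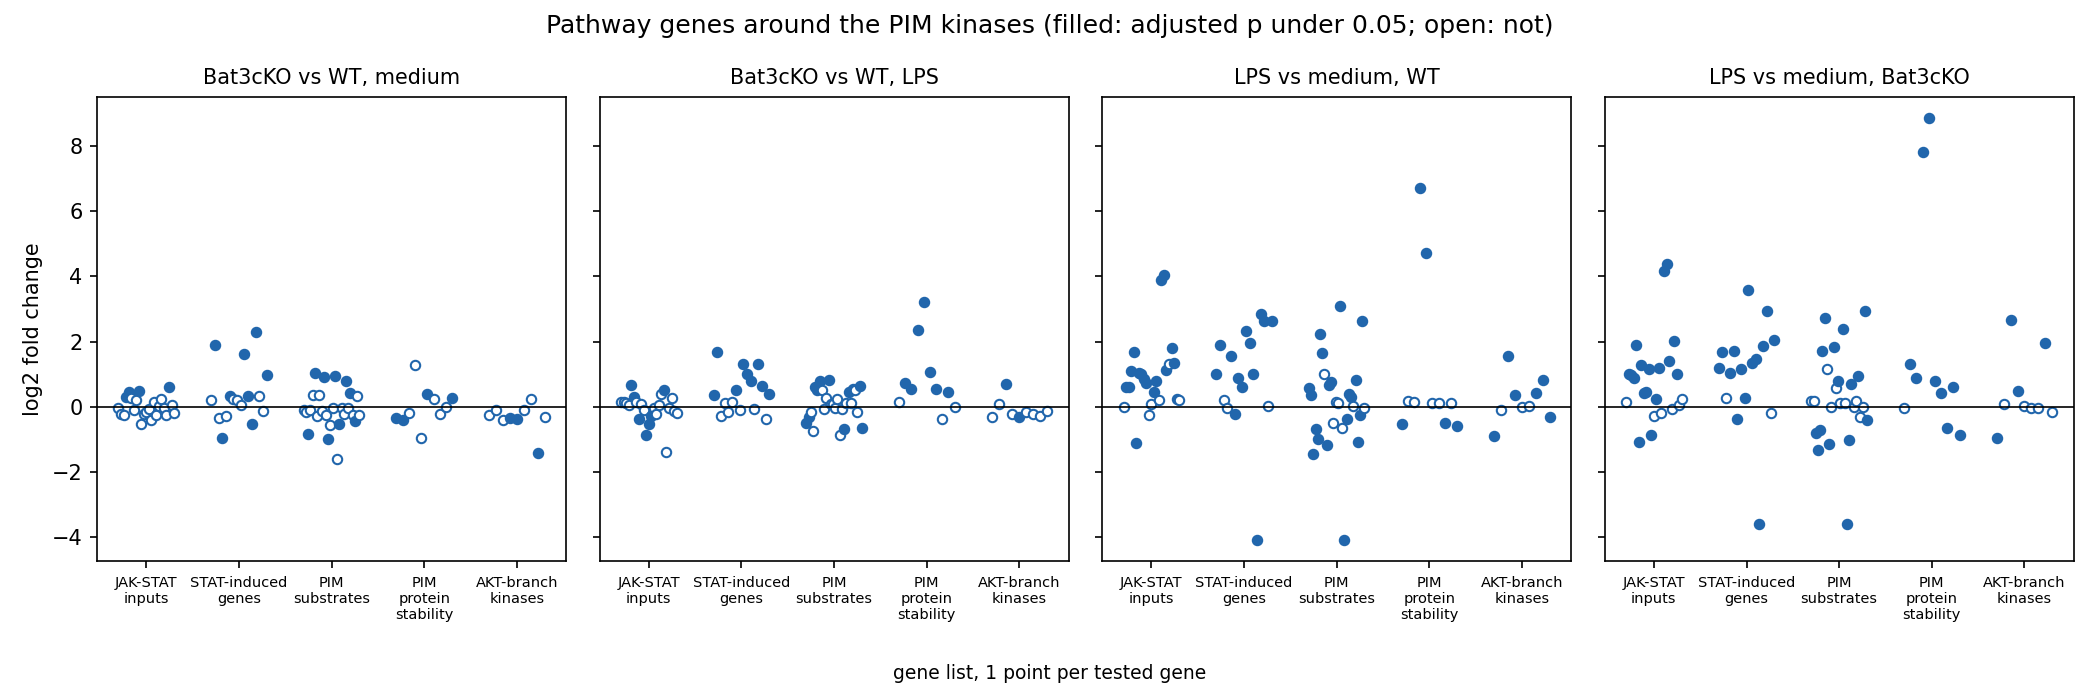
Each point is the log2 fold change of 1 gene from 5 lists of genes around the PIM kinases, in 4 comparisons; filled points passed the edgeR test at an adjusted p under 0.05. Genotype differences in medium stay between −1.61 for Myb and 2.30 for Osm, and LPS changes reach 8.88 for Hspa1b in Bat3cKO cells.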

How the data were processed

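The 18 libraries were made with an Illumina TruSeq RNA kit, per the labels' protocols; reads were quantified with RSEM on mm10, per the submitters' processing notes, with no version, and strandedness is not given in the sources used here. The authors deposited, per gene, expected counts, TPM and effective lengths; FPKM was not used. Expected counts were rounded and tested with edgeR 4.0.16 (R 4.3.3): filterByExpr (11876 genes kept), TMM scaling, a robust quasi-likelihood fit of all 6 groups, and Benjamini-Hochberg adjustment over all tested genes with a threshold of 0.05. Intervals are 95%. The TPM scale was tested with limma 3.58.1 and a pseudocount of 1 or 0.1, and DESeq2 1.42.0 was an alternative. RSEM gave non-whole counts, which it makes for reads with several matches, in 7 of 18 libraries for Pim1 and 12 for Pim3. The procedure was tested on simulated data for LPS against medium in WT cells. It recovered 34.3% of 1.5-fold, 88.1% of 2-fold and 97.0% of 4-fold changes. Far fewer genes were changed there than were called in the data, so it does not show how the test behaves with that many changes.

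Named pathway genes are the 3 called members of each list with the smallest p in a comparison (or the 3 smallest p), and others by role; likeness of pattern and neighbours followed fixed counts of 5. The members and lists were chosen with earlier results of these data known. Same-numbered libraries deviated together in every pair for WT medium with IL10 and TGF-β (correlations 0.374, 0.257 and 0.473). So did those for WT medium with LPS and both cytokines (0.338, 0.142 and 0.241). These pairings come from the data, not the labels, and blocking on the replicate number changed no PIM call in these comparisons. Between the WT LPS groups with and without cytokines the correlations were negative (−0.023, −0.066 and −0.174). Sequences are from RefSeq (GRCm38.p6; all 3 symbols matched) and GENCODE M21. Protein sequences were not used here. Some genes of the lists are counted in them but not reported here by name.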

Additional observations from a re-analysis of the deposited data

Results flagged for a closer look

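Named genes of the pathway lists are given here because their LPS change differed between the genotypes or between cells with and without IL10 and TGF-β, by the edgeR interaction test at an adjusted p under 0.05. They are taken from the 3 genes of each list with the smallest p, so other listed genes can pass too. Values are differences of log2 changes.

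Between the genotypes, the LPS change was larger in Bat3cKO cells for Irf1 (1.27), Sgk1 (1.16), Hsp90aa1 (1.14), Ccnd1, the cyclin D1 gene (1.09), Foxo3, a transcription factor gene (1.09), Hsp90ab1 (0.742) and Cdc37 (0.494). It was smaller, or more negative, in Bat3cKO cells for Osm (-0.999), Nfatc1 (-0.649), Il10ra (-0.590), Cdkn1a (-0.528) and Il10rb (-0.394). Adjusted p-values ran from 7.9e-05 for Irf1 to 0.046 for Il10rb by edgeR.

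With IL10 and TGF-β, the LPS change was smaller or more negative for Hspa1a (-6.32), Hspa1b (-4.00), Osm (-3.40), Stat2 (-2.40), Ccnd2 (-2.38), Junb (-1.70), Socs1 (-1.23), Cdkn1a (-1.03), Hsp90aa1 (-0.754), Mtor (-0.698) and Rps6kb2 (-0.644). It was larger, or less negative, for Ifngr1 (1.12) and Eif4b (0.890). Adjusted p-values ran from 8.2e-13 for Osm to 0.018 for Rps6kb2 by edgeR. Hspa1a and Hspa1b are near-identical, so the division of reads between them is uncertain.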

How the results depend on the processing

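On the TPM scale (log2 of TPM + 1, then + 0.1) several PIM values moved. The genotype difference of Pim1 was 4.06 and 4.15 in medium and 4.37 and 4.44 under LPS, that of Pim2 under LPS 0.487 and 0.562 and that of Pim3 under LPS 0.705 and 0.709. The LPS change of Pim2 turned to -0.0211 and -0.0237 in WT and -0.280 and -0.315 in Bat3cKO cells. The genotype difference in the LPS change was 0.308 and 0.289 for Pim1, -0.259 and -0.292 for Pim2 and -0.378 and -0.385 for Pim3. LPS with both cytokines against medium gave Pim1 0.0878 and 0.0933, past no threshold, and Pim1 against WT LPS passed at -0.279 with TPM + 0.1 (limma adjusted p = 0.05 after rounding). The genotype difference in the LPS change of Pim2 was also negative with upper-quartile scaling (-0.0262) and without the first library of both Bat3cKO groups (-0.115). Pim3 with IL10 and TGF-β, at about 0, was positive with RLE scaling (0.0011) and DESeq2 (0.0004). Pim3 between the WT LPS groups passed with upper-quartile scaling (0.348), no count filter (0.332) and Rn45s removed (0.330). The cause of these shifts was not tested.

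With the replicate block, Pim3 between the WT LPS groups passed at 0.309, the cytokine effect on the LPS response of Pim1 passed at -0.464, and Pim3 with IL10 and TGF-β was 0.0017; the block changed no other PIM call. Leaving out 1 library at a time gave ranges of -0.374 to -0.0951 for Pim1 and 0.179 to 0.453 for Pim3 between the WT LPS groups, and 0.280 to 0.443 for Pim1 and -0.149 to 0.131 for Pim2 for LPS with cytokines against medium. The cytokine effect on the LPS response ranged from -0.587 to -0.308 for Pim1 and from -0.167 to 0.155 for Pim2. The genotype difference in the LPS change ranged from 0.434 to 0.713 for Pim1 (highest without WT LPS replicate 2), from -0.172 to 0.183 for Pim2 and from -0.242 to 0.0043 for Pim3, and Pim3 with IL10 and TGF-β from -0.0804 to 0.139. In all, 474 of 528 alternative values of the PIM kinases kept their direction and call, or moved by less than the spread between replicates. The genotype differences in medium and under LPS had no test and were judged by that spread. Leaving out 1 library could hardly move them by that much, so no conclusion is drawn from those values. The alternative shares of the family could not have moved by that much. Leaving out 1 of 3 libraries shifts a mean by less than their spread, and TPM is itself scaled from counts over effective length. No conclusion is drawn from these shares. Of 2543 values of named pathway genes 109 lost their call and 0 reversed, and of 1760 counts over lists 225 moved by more than 1.5 times.

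Over all genes, the genotype difference in medium was called for 3583 genes, and for 2306 in a fit of those groups alone. The genotype difference in the LPS change was called for 870 higher and 1200 lower genes, against 419 and 2890 on log2(TPM + 1), 376 and 3027 with TPM + 0.1, 540 and 728 without the first Bat3cKO libraries, 1111 and 901 with RLE and 1206 and 972 with DESeq2. On log2(TPM + 1) higher and lower calls were 1526 and 2946 for the cytokines against medium, 1950 and 3499 for LPS added to them, 2382 and 5071 for LPS with cytokines against medium, 1465 and 1145 for the cytokine effect on the LPS response (1466 and 1166 with upper-quartile scaling) and 1434 and 2209 for genotype in medium. Pim2, at 37 to 120 counts per library, is limited by depth.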
